A study of Homo sapiens with 20 samples.

Results

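The transcripts of 7 genes of steroid metabolism were followed in SUM44 cells, an established line grown from a human invasive lobular carcinoma of the breast. The genes were HSD11B2, HSD11B1, HSD17B1, HSD17B2, HSD17B4, STS and SULT1E1. They were chosen by name, with earlier results of these data known. All 7 were measured, by 10 probe sets of the 22215 that remain after control probe sets are left out, and they are 7 of 11963 genes in all. A probe set is a group of short array probes against 1 transcript. STS had 4 probe sets and each other gene had 1, and the brightest probe set on average over all arrays leads each gene.

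These enzymes set how much active steroid a cell sees. HSD11B2 (11beta-hydroxysteroid dehydrogenase type 2) turns cortisol into inactive cortisone, which keeps cortisol away from the mineralocorticoid receptor, and HSD11B1 mainly runs the opposite reaction. HSD17B1 reduces the weak estrogen estrone to estradiol, while HSD17B2 oxidises estradiol back to estrone, and HSD17B4 is a peroxisomal enzyme of fatty acid beta-oxidation that can also oxidise estradiol. SULT1E1 attaches a sulfate to estrogens, which makes them inactive, and STS (steroid sulfatase) removes the sulfate. In breast tissue this local handling adds to the steroid that arrives with the blood.

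RNA was hybridised to 20 Affymetrix human expression arrays in 5 groups of 4. Every group had first spent 3 days without hormone in charcoal-stripped serum, given as 2% in the series text and 10% in the sample text, which was not settled. The groups were cells taken at 0 h with no addition, cells given the vehicle (0.01% ethanol) for 3 h or for 24 h, and cells given 1 nM estradiol (E2) for 3 h or for 24 h. The replicates, lettered A to D in the titles, are biological quadruplicates in the series text. The 4 arrays titled E2 at 24 h carry baseline in their treatment field while title and description name E2. The title decided their group. This is a single line in culture, so the values describe SUM44 and no other cells.

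Values are deposited log2 expression, on which a difference of 1 is a doubling. Differences come from limma, with a two-sided test and p-values adjusted by Benjamini-Hochberg over all 11963 genes. A gene was called where the adjusted p was under 0.05. The ± of a mean is the SD over 4 arrays and that of a difference is the standard error of the fit. A level under 6.11, below which the lowest 25% of genes lie, is called dim, and a change near that level may be compressed. Levels of different genes come from different probes and are not set against each other.

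The 20 arrays correlated at 0.998 to 0.999 within groups and at 0.989 to 0.998 between groups. All 8 luminal epithelial markers, ESR1 and KRT8 among them, lay above the dim level in each group, at means of 10.4 to 13.98. Of 8 stromal markers 3 to 4 were dim and of 7 measured immune and endothelial markers 4 to 5 were dim. The summed log2 level of the luminal markers was 102.3 to 103.1 in E2 at 3 h and 105.5 to 105.6 in vehicle at 3 h. The 8 markers did not fall together, as 3 were called higher and 3 lower at 3 h. Their differences ran from -2.07 to 0.59, with a median of -0.01. At 24 h the sum was 105.4 to 105.6 in E2 and 105.0 to 105.3 in vehicle, again with no overlap but in the other direction. Of the 8 luminal markers 4 were then called higher and 4 lower. The summed level of the stromal markers was 50.7 to 51.9 in E2 and 50.1 to 50.8 in vehicle at 24 h, when 3 of the 8 were called higher and 1 lower, and at 3 h 0 were called. The 3' minus 5' difference of the ACTB control, a sign of RNA quality, was 0.385 ± 0.032 in E2 at 3 h and 0.315 ± 0.027 in vehicle at 3 h, with no overlap. At 24 h it was 0.384 ± 0.014 in E2 and 0.397 ± 0.032 in vehicle, with overlap. That of the GAPDH control ran the other way at 3 h, at -0.138 ± 0.011 in E2 and -0.116 ± 0.009 in vehicle with no overlap, and was -0.148 ± 0.013 and -0.117 ± 0.032 at 24 h, with overlap. The part of these shifts in the results below was not tested. In bulk RNA a lower value can come from fewer cells of a type or from less RNA per cell, and these cannot be told apart.

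Promoter sequences are shown first for HSD17B4 and STS, the called genes for which the RefSeq table of build GRCh38.p14 held an entry. The table held windows for 4 of the 7 genes, namely HSD11B1, HSD17B4, SULT1E1 and STS, the last with 5 start sites. The 250 bases before each start were searched on both strands for GGTCA, the half-site of the element that estrogen receptors bind, and for the full element GGTCANNNTGACC, whose matches also count as half-sites. Capitals mark a half-site as read on the strand shown, where TGACC is GGTCA on the opposite strand. All 3 windows are on the plus strand, at chr5:119452247-119452496 for HSD17B4, chrX:7147040-7147289 for STS start 1 and chrX:7251994-7252243 for STS start 4.
HSD17B4: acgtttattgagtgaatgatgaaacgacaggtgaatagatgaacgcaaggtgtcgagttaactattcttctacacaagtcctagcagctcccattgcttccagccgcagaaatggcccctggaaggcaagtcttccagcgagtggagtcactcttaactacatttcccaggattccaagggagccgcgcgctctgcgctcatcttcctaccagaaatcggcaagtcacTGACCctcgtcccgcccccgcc
STS start 1: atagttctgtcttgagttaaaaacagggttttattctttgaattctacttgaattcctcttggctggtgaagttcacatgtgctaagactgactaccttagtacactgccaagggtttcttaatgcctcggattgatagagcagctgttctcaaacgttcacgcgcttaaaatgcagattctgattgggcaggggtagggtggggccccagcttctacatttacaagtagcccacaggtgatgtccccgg
STS start 4: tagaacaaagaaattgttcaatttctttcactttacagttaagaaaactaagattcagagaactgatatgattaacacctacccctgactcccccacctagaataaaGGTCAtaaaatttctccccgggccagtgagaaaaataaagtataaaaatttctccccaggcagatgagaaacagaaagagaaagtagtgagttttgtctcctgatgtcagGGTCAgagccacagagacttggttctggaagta
The HSD17B4 window held 1 half-site, whose first base lies 22 bases before the start. STS start 4 held 2, at 143 and 33 bases before the start, start 3 held 1 at 243 bases, and starts 1, 2 and 5 held 0. The windows of HSD11B1 and SULT1E1 held 0, and none of the 8 windows held the full element. A half-site was held by 32.65% of all 35116 windows in the table, and the full element by 14. A match here is a description of letters and not a binding site.

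E2 raised HSD11B2 at both times, most at 3 h, when no other of the 7 genes passed the test. At 24 h HSD17B4 also rose while HSD17B2 and STS fell. HSD11B1, HSD17B1 and SULT1E1 were dim in each group and passed the test in none of the 7 comparisons made. At 3 h 1 of 7 genes was called, against 31.1% of all genes (13.5% higher and 17.6% lower). At 24 h 4 of 7 were called, 2 higher and 2 lower, against 45.7% of all genes (21.5% higher and 24.2% lower). The median difference of the 7 genes was -0.08 at 24 h, beside 0.017 over all genes.

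**Figure D1:**
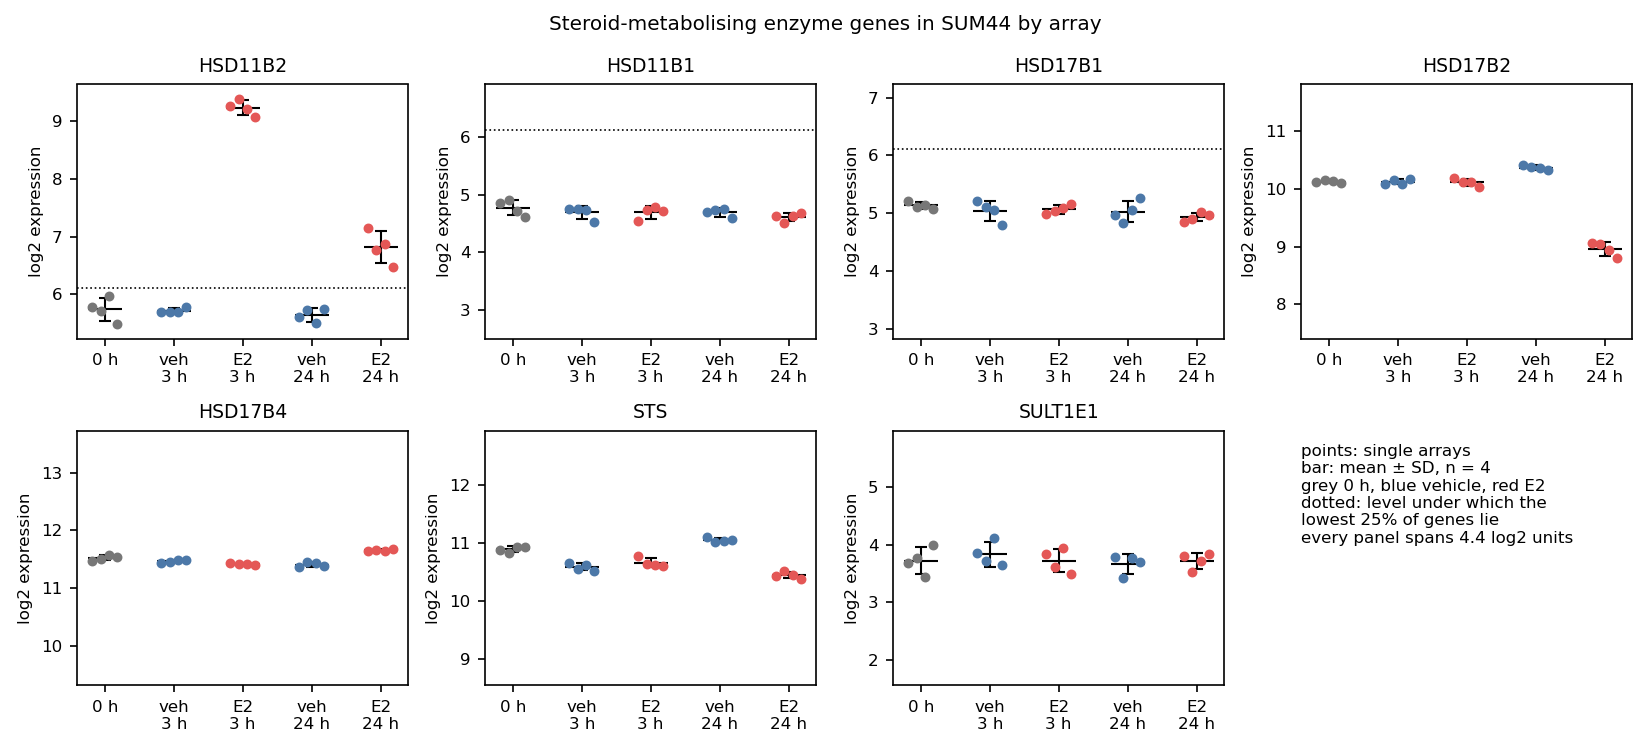
log2 expression of the 7 genes by array. Each panel is 1 gene over the 5 groups on the x axis, with 1 point per array and a bar at the mean ± SD of 4 arrays, and each panel spans the same range of log2 units around that gene's own level. HSD11B2 stands at 9.07 to 9.38 in E2 at 3 h and at 6.48 to 7.15 in E2 at 24 h, and HSD17B2 and STS are lowest in E2 at 24 h.

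HSD11B2, the cortisol-inactivating enzyme, was dim in every group without E2. Its log2 level was 5.78, 5.72, 5.98 and 5.49 in the 4 arrays of 0 h, 5.70, 5.70, 5.69 and 5.78 in vehicle at 3 h, and 5.60, 5.74, 5.50 and 5.74 in vehicle at 24 h. In E2 at 3 h it was 9.27, 9.38, 9.21 and 9.07, and in E2 at 24 h it was 7.15, 6.77, 6.88 and 6.48. The 8 E2 arrays lay above the 12 others, and the E2 arrays of 3 h lay above those of 24 h with no overlap.

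The E2 effect on HSD11B2 at 3 h was 3.52 ± 0.11 (11.4-fold, 95% interval 3.28 to 3.75, limma adjusted p = 3.1e-15). It was the second-highest difference of all genes in that comparison, at rank 2. At 24 h the E2 effect was 1.18 ± 0.11 (2.26-fold, interval 0.94 to 1.41, adjusted p = 3.9e-08), at rank 88 of 11963. The effect at 24 h was smaller than that at 3 h by a log2 difference of -2.34 ± 0.16 (adjusted p = 6.2e-10). Since vehicle levels were dim, the fold sizes may be too small. Vehicle alone gave -0.02 ± 0.11 at 3 h and -0.10 ± 0.11 at 24 h against 0 h (adjusted p = 0.93 and 0.63), with overlapping arrays. The E2 arrays themselves were lower at 24 h than at 3 h by -2.41 ± 0.11 (adjusted p = 1.0e-12).

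HSD11B1, which regenerates cortisol, stayed dim. Its group means ran from 4.61 ± 0.07 in E2 at 24 h to 4.77 ± 0.13 at 0 h, and the E2 and vehicle arrays overlapped at both times. The E2 effect was 0.00 at 3 h, with an interval of -0.14 to 0.14, and -0.08 ± 0.07 at 24 h, with an interval of -0.22 to 0.06 (adjusted p = 1.00 and 0.37). The pair of 11beta-enzymes therefore had 1 called member. At levels this low a change of HSD11B1 may go undetected.

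HSD17B2, which oxidises estradiol to estrone, did not pass the test at 3 h and fell at 24 h. Its level was 10.12, 10.15, 10.14 and 10.10 at 0 h, 10.09, 10.16, 10.08 and 10.16 in vehicle at 3 h, and 10.19, 10.11, 10.11 and 10.04 in E2 at 3 h. At 24 h it was 10.42, 10.37, 10.36 and 10.32 in vehicle and 9.06, 9.04, 8.94 and 8.80 in E2. The 4 E2 arrays of 24 h lay below all other arrays, and the vehicle arrays of 24 h lay above all others.

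The E2 effect on HSD17B2 was -0.01 ± 0.05 at 3 h (interval -0.11 to 0.09, adjusted p = 0.91). At 24 h it was -1.41 ± 0.05 (2.66-fold lower, interval -1.51 to -1.31, adjusted p = 6.1e-15), the value at rank 48 from the lowest of 11963 genes. The difference between the times was -1.40 ± 0.07 (adjusted p = 4.2e-12). Vehicle at 24 h was itself above 0 h by 0.24 ± 0.05 (adjusted p = 0.0016), and above vehicle at 3 h by 0.24 ± 0.05 (adjusted p = 0.00046). E2 at 24 h was below E2 at 3 h by -1.15 ± 0.05 (adjusted p = 1.6e-13). Seen from the 3 h groups, the E2 arrays thus moved farther than the vehicle arrays.

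HSD17B4, the peroxisomal enzyme, rose at 24 h by a small amount. Its level was 11.48, 11.51, 11.57 and 11.55 at 0 h, 11.43, 11.46, 11.48 and 11.48 in vehicle at 3 h, and 11.44, 11.42, 11.42 and 11.41 in E2 at 3 h. At 24 h it was 11.36, 11.46, 11.43 and 11.38 in vehicle and 11.64, 11.66, 11.65 and 11.68 in E2. The E2 arrays of 24 h lay above all other arrays.

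The E2 effect on HSD17B4 was 0.25 ± 0.03 at 24 h (1.19-fold, interval 0.19 to 0.31, adjusted p = 2.6e-07) and -0.04 ± 0.03 at 3 h (interval -0.10 to 0.02, adjusted p = 0.30). The difference between the times was 0.29 ± 0.04 (adjusted p = 5.6e-06). Vehicle at 24 h lay below 0 h by -0.12 ± 0.03 (adjusted p = 0.0072), a call that was lost when only the arrays of those 2 groups were fitted (adjusted p = 0.061). E2 at 24 h was above E2 at 3 h by 0.24 ± 0.03 (adjusted p = 5.5e-07).

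HSD17B1, the enzyme that makes estradiol from estrone, was dim at group means of 4.93 ± 0.07 in E2 at 24 h to 5.13 ± 0.06 at 0 h. Its E2 effect was 0.03 ± 0.08 at 3 h (interval -0.15 to 0.20) and -0.10 ± 0.08 at 24 h (interval -0.27 to 0.08), with overlapping arrays at both times (adjusted p = 0.87 and 0.37). Of the 3 members of the 17beta family, the oxidising HSD17B2 and HSD17B4 thus moved in opposite directions at 24 h, and the reducing HSD17B1 had no call.

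**Figure D2:**
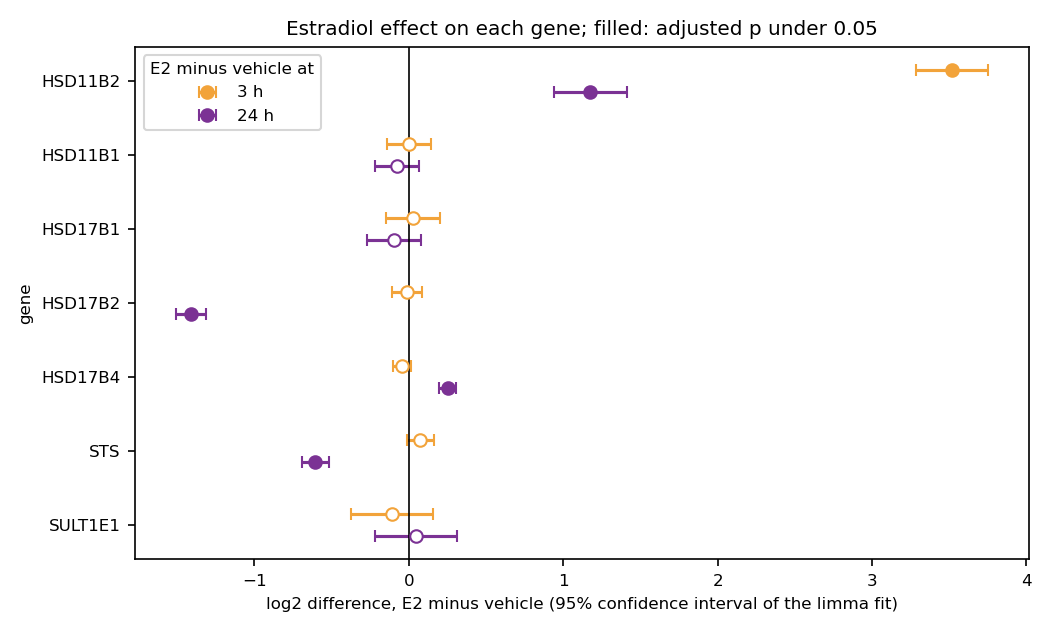
The E2 effect on each of the 7 genes at 3 h and at 24 h. The x axis is the log2 difference of E2 minus vehicle, bars are 95% confidence intervals of the limma fit over 20 arrays, and filled points passed an adjusted p of 0.05. HSD11B2 is at 3.52 and 1.18, while HSD17B2 (-1.41), STS (-0.60) and HSD17B4 (0.25) are called at 24 h and not at 3 h.

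STS, the sulfatase that frees estrone and other steroids from their sulfates, moved with time in vehicle as well as with E2. Its leading probe set read 10.88, 10.84, 10.94 and 10.93 at 0 h, 10.65, 10.56, 10.63 and 10.52 in vehicle at 3 h, and 10.78, 10.64, 10.63 and 10.61 in E2 at 3 h. At 24 h it read 11.10, 11.03, 11.03 and 11.06 in vehicle and 10.44, 10.53, 10.45 and 10.39 in E2. The vehicle arrays of 24 h were above all others and the E2 arrays of 24 h overlapped only with those of vehicle at 3 h.

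The E2 effect on STS was 0.08 ± 0.04 at 3 h (interval -0.01 to 0.16, adjusted p = 0.20) and -0.60 ± 0.04 at 24 h (1.52-fold lower, interval -0.69 to -0.52, adjusted p = 3.9e-10). The difference between the times was -0.68 ± 0.06 (adjusted p = 2.3e-08). Vehicle fell at 3 h by -0.31 ± 0.04 against 0 h (adjusted p = 2.1e-05) and was above 0 h at 24 h by 0.16 ± 0.04 (adjusted p = 0.018). The call at 24 h in vehicle was lost without array B of 0 h (adjusted p = 0.065) and without array A of vehicle at 24 h (adjusted p = 0.054). Between the times vehicle rose by 0.47 ± 0.04 (adjusted p = 8.0e-08), while E2 fell by -0.21 ± 0.04 (adjusted p = 0.00028). Seen from the 3 h groups, the vehicle arrays thus moved farther than the E2 arrays.

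The other 3 probe sets of STS gave the same direction at 24 h, with E2 effects of -0.59 ± 0.06, -0.68 ± 0.06 and -0.43 ± 0.04, each called when p-values were adjusted over all probe sets. Their effects at 3 h were 0.03, 0.08 and -0.05, and none was called. Against 0 h the vehicle at 3 h was lower in all 3, by -0.25, -0.25 and -0.16, each called. At 24 h vehicle minus 0 h was 0.12, 0.31 and 0.12, of which the first was not called (adjusted p = 0.21) and the others were (adjusted p = 0.0013 and 0.040).

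**Figure D3:**
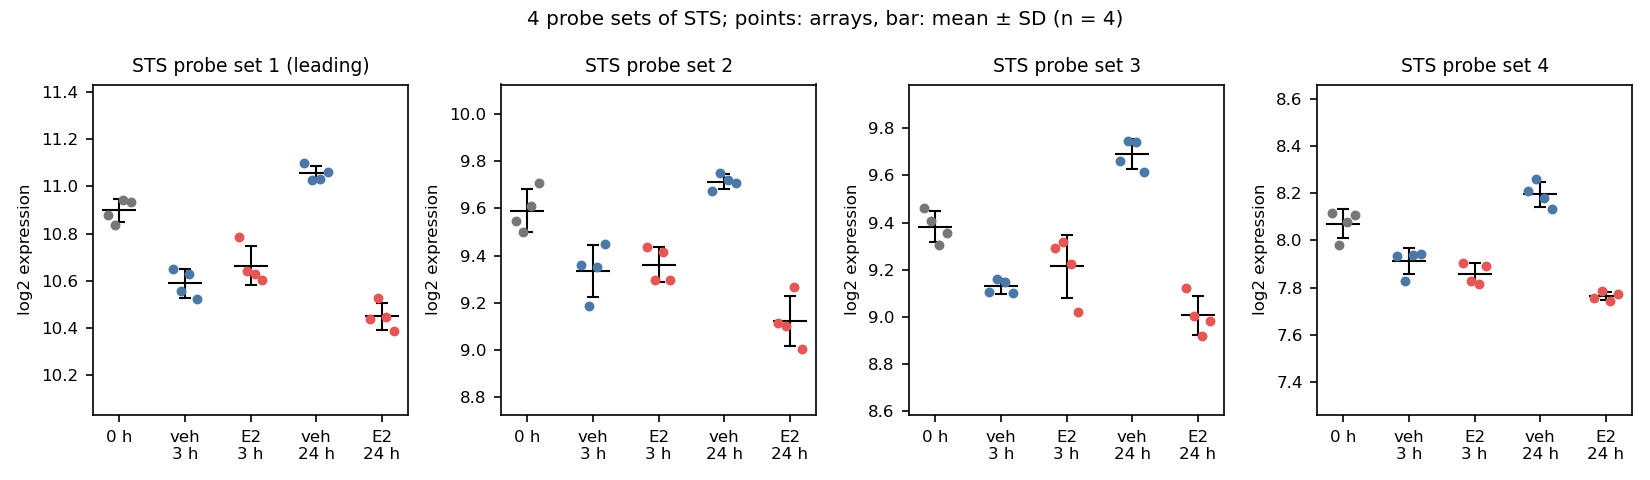
log2 expression of the 4 STS probe sets by array over the 5 groups, with a bar at the mean ± SD of 4 arrays. In each panel the vehicle arrays of 24 h are the highest as a group and the E2 arrays of 24 h the lowest by mean, with E2 effects at 24 h of -0.60, -0.59, -0.68 and -0.43 from left to right.

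SULT1E1, the estrogen sulfotransferase, was dim throughout, and its arrays overlapped between E2 and vehicle at both times. Its group means ran from 3.67 ± 0.17 in vehicle at 24 h to 3.83 ± 0.21 in vehicle at 3 h. The E2 effect was -0.11 ± 0.13 at 3 h (interval -0.37 to 0.16, adjusted p = 0.60) and 0.05 ± 0.13 at 24 h (interval -0.22 to 0.31, adjusted p = 0.79). Of the sulfate pair only STS was called, and the intervals of SULT1E1 still allow changes within the bounds given.

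Over time, 4 of 7 genes had E2 effects that differed between 3 h and 24 h, against 34.3% of all genes, and these were HSD11B2, HSD17B2, HSD17B4 and STS. In vehicle against 0 h, 1 of 7 was called at 3 h (STS) against 20% of all genes, and 3 of 7 at 24 h (HSD17B2 and STS higher, HSD17B4 lower) against 11.9%. E2 at 24 h differed from E2 at 3 h for 4 of 7, against 43.8%, with HSD17B4 higher and HSD11B2, HSD17B2 and STS lower. Vehicle at 24 h differed from vehicle at 3 h for 2 of 7 (HSD17B2 and STS, both higher), against 28.9%. HSD17B4 was also called there, as lower, with quantile normalization applied again (-0.079, limma adjusted p = 0.032). These comparisons share groups, so their calls are not independent of each other. For HSD17B2, STS and HSD17B4 the shift of vehicle at 24 h ran against that of E2 at 24 h.

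Among the 4 arrays of E2 at 24 h, array D was the lowest for HSD11B2 (6.48), HSD17B2 (8.80) and STS (10.39) and the highest for HSD17B4 (11.68). Without it the E2 effects at 24 h were 1.29, -1.35, -0.58 and 0.24, and all 4 kept their calls. The spread of HSD11B2 in that group, an SD of 0.28, was the widest of any gene and group here, and that of HSD17B4 in E2 at 3 h, at 0.01, was the narrowest.

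Genes of the same pathways were taken from 5 lists, which give the setting of the 7 genes. Their counts are to be read against the 31.1% of all genes called at 3 h and the 45.7% called at 24 h. In steroid synthesis from cholesterol, 11 of 13 listed genes were measured and 7 were dim in each group. At 3 h 0 rose and 1 fell, which was FDX1 (-0.38 ± 0.03, adjusted p = 2.2e-08), the ferredoxin that feeds electrons to mitochondrial steroid enzymes. FDX1 had risen in vehicle at 3 h against 0 h by 0.39 ± 0.03. At 24 h 0 rose and 3 fell, namely POR (-0.41 ± 0.03), the electron donor of microsomal P450 enzymes, CYB5A (-0.25 ± 0.02), its partner cytochrome, and CYP19A1 (-0.29 ± 0.06), the aromatase that makes estrogens from androgens and was dim. That 0 became 1 without array C or D of E2 at 24 h, and also with arrays centred on their median, quantile normalization, a trended robust prior, array weights or the dimmest genes left out. The list's median E2 effect was 0.02 at both times.

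Among other 17beta-hydroxysteroid dehydrogenases and steroid reductases, 17 of 19 were measured, with 1 higher and 4 lower at 3 h and 3 higher and 5 lower at 24 h. These shares lie near the 31.1% and 45.7% of all genes called at those times. H6PD, which supplies the cofactor that drives HSD11B1 as a reductase, fell at 3 h by -0.33 ± 0.03 (adjusted p = 9.0e-08) and was at -0.07 at 24 h without a call. The fall at 3 h was called in 1 of its 2 probe sets. The aldo-keto reductase AKR1C3, which like HSD17B1 can reduce 17-ketosteroids, fell by -0.35 ± 0.03 at 3 h and -0.80 ± 0.03 at 24 h, from vehicle means of 10.93 ± 0.07 and 10.51 ± 0.05. Its relatives AKR1C2 and AKR1C1 fell at 3 h too, by -0.23 ± 0.03 and -0.22 ± 0.03, through probe sets that may cross-hybridise. At 24 h they fell by -0.61 ± 0.03 and -0.55 ± 0.03. Vehicle at 24 h was below 0 h in AKR1C3, AKR1C2 and AKR1C1, by -0.49, -0.72 and -0.69. The bile acid enzyme AKR1D1 fell at 24 h by -1.02 ± 0.09 but was dim. HSD17B7, an enzyme of cholesterol synthesis that can also reduce estrone, rose at 24 h by 0.54 ± 0.05 (adjusted p = 3.7e-08), and HSD17B8 rose by 0.16 ± 0.03. The only probe set of HSD17B7 may cross-hybridise. SRD5A1, a 5alpha-reductase, fell by -0.46 ± 0.04 at 24 h after 0.12 ± 0.04 at 3 h, where its call was lost with the replicate block and without array A, B or D of vehicle or array A or C of E2 at 3 h. HSD17B7, HSD17B8 and SRD5A1 were picked for mention after their values were seen.

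In conjugation, which makes steroids soluble for export, 9 of 17 genes were measured, with 3 higher and 3 lower at 3 h and 6 higher and 1 lower at 24 h. Over all genes 13.5% were higher and 17.6% lower at 3 h, and 21.5% higher and 24.2% lower at 24 h. UGT2B15, a glucuronosyltransferase of androgens, rose at 24 h by 1.62 ± 0.06 (3.07-fold, adjusted p = 1.4e-14), from 5.85 ± 0.14 to 7.46 ± 0.07. This rise was called in 2 of its 3 probe sets and started from a dim vehicle level. The leading probe set may cross-hybridise. At 3 h UGT2B15 was at -0.18 ± 0.06 (adjusted p = 0.020), a call that was lost without array B or C of vehicle or array A or B of E2. The mean of its 3 probe sets, of which 1 was called, gave -0.02 without a call (adjusted p = 0.80). Its close relative UGT2B17 rose at 24 h by 1.37 ± 0.09 and UGT2B4 fell by -2.05 ± 0.12, both dim. Without array D of E2 at 24 h, 2 genes of the list were lower. SULT2B1, a sulfotransferase of cholesterol and hydroxysteroids, rose at 3 h by 0.41 ± 0.06 (adjusted p = 7.0e-06) and at 24 h by 0.26 ± 0.06. SULT1A1, another sulfotransferase, rose by 0.19 ± 0.03 at 3 h and by 0.11 ± 0.03 at 24 h (adjusted p = 5.2e-05 and 0.0050). These rises were called in 2 and 1 of its 2 probe sets, and the leading one may cross-hybridise. PAPSS1 and PAPSS2, which make the sulfate donor that SULT1E1 uses, were at -0.15 ± 0.03 and 0.14 ± 0.03 at 3 h and at 0.13 ± 0.03 and 0.16 ± 0.03 at 24 h, each called. The list's median E2 effect was -0.04 at 3 h and 0.13 at 24 h.

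In estrogen oxidation, 7 of 10 genes were measured, with 1 higher and 0 lower at 3 h and 1 higher and 2 lower at 24 h. CYP1B1, which hydroxylates estradiol, rose by 0.53 ± 0.04 at 3 h and by 1.63 ± 0.04 at 24 h (adjusted p = 9.9e-10 and 4.5e-17). Its vehicle mean was 12.64 ± 0.07 at 3 h, above 0 h by 2.11 ± 0.04, and 10.10 ± 0.05 at 24 h. CYP7B1, an oxysterol hydroxylase, fell at 24 h by -0.76 ± 0.08 but was dim. CYP3A5 was at -0.17 ± 0.06 at 24 h (adjusted p = 0.026), and that call was lost without array A, C or D of vehicle or array A or D of E2, which left 1 lower. Without array A or C of vehicle or array B or C of E2, 2 genes of the list were higher.

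Receptors of corticosteroids and their known target genes are set beside HSD11B2, which inactivates cortisol, and 11 of 12 were measured. The cells had spent 3 days without hormone, and no group is said to have been given cortisol. Any action of HSD11B2 on these genes was not tested. At 3 h 5 rose and 3 fell, and at 24 h 2 rose and 5 fell. Without array A of E2 at 3 h, 3 rose at 3 h. NR3C2, the mineralocorticoid receptor, fell at 3 h from 7.71 ± 0.05 to 6.54 ± 0.12, by -1.17 ± 0.05 (2.25-fold, adjusted p = 5.1e-13), and was at -0.03 at 24 h without a call. SGK1, a kinase induced by corticosteroids, rose by 0.77 ± 0.10 at 3 h and 0.88 ± 0.10 at 24 h. SCNN1A, a sodium channel subunit, rose at 3 h by 0.29 ± 0.04 and fell at 24 h by -0.19 ± 0.04, each called in 1 of its 3 probe sets. The mean of those probe sets gave -0.06 at 24 h, without a call. FKBP5 rose at 24 h by 0.59 ± 0.05, after -0.15 ± 0.05 at 3 h, where the call was lost without array D of vehicle or array A or B of E2. The phosphatase gene DUSP1 fell by -0.72 ± 0.07 and -0.96 ± 0.07 at 3 h and 24 h, and the metallothioneins MT2A and MT1X fell at 24 h by -0.93 ± 0.04 and -1.15 ± 0.04. At 3 h both had risen, by 0.13 ± 0.04 and 0.11 ± 0.04 (adjusted p = 0.012 and 0.030), and the call of MT1X was lost without array B or C of vehicle or array A, B or C of E2. NR3C1, the glucocorticoid receptor, was called at neither time. Its group means of 6.05 to 6.20 lay around the dim level, where a change may go undetected. These targets thus did not move in 1 direction, and the list's median effect was -0.04 at 3 h and -0.05 at 24 h, beside 0.0002 and 0.017 over all genes.

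**Figure D4:**
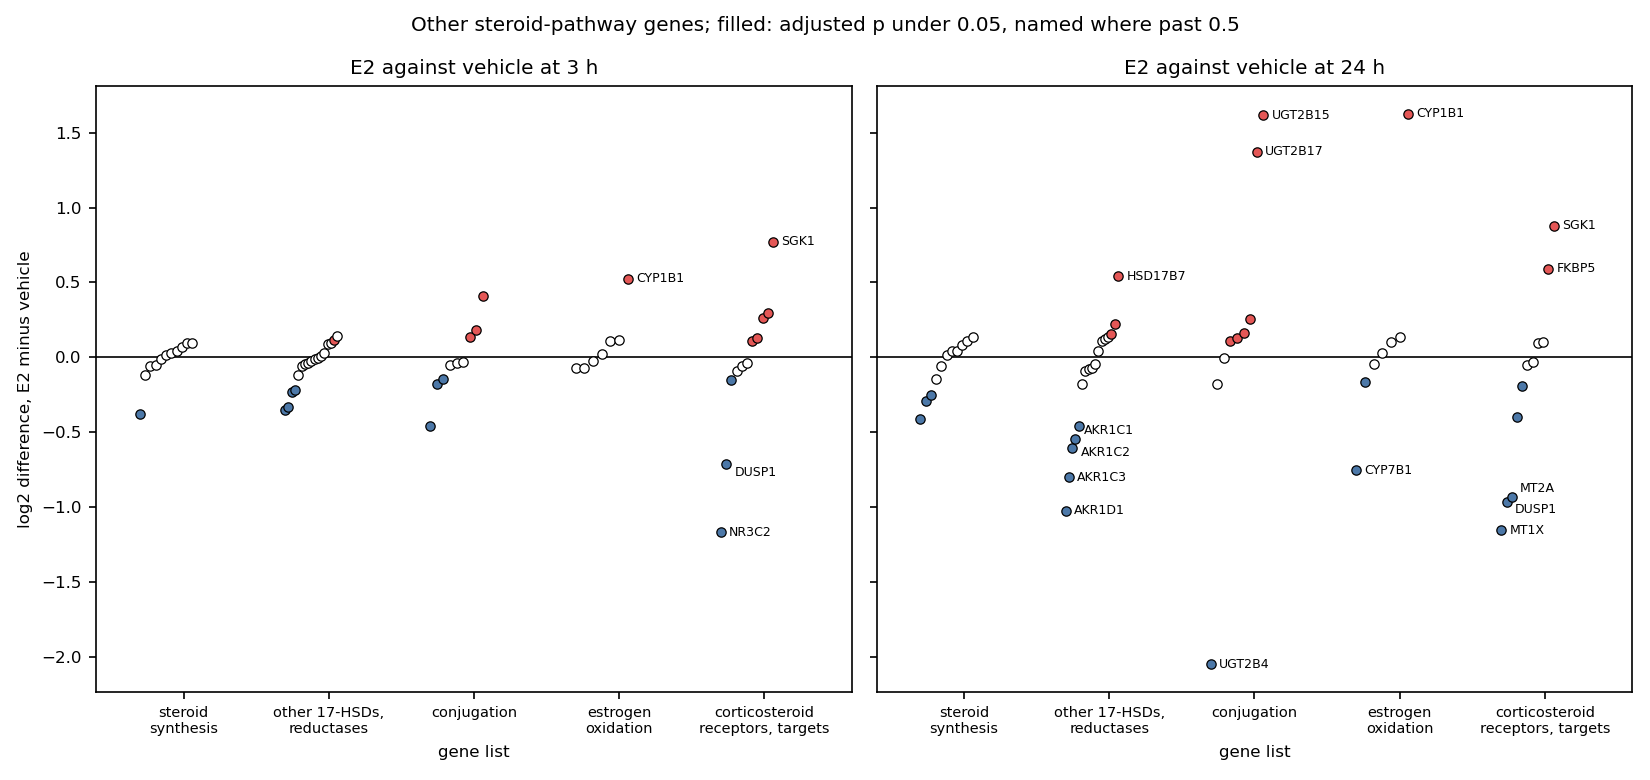
The E2 effect on the genes of the 5 pathway lists at 3 h (left) and at 24 h (right). Each point is 1 gene, the y axis is the log2 difference of E2 minus vehicle, filled points passed an adjusted p of 0.05, and called genes past a difference of 0.5 are named. NR3C2 (-1.17) is the lowest at 3 h, and UGT2B15 (1.62), CYP1B1 (1.63) and UGT2B4 (-2.05) are the farthest from 0 at 24 h.

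The genes whose course was most like that of HSD11B2 were found by the root-mean-square distance, in log2, over the differences of 4 group means from 0 h, across 20 arrays in 5 groups. The closest 5 were FGFR3 (0.483), a growth factor receptor, KAZN (0.497), SMAD7 (0.550), which damps TGF-beta signals, SPRY4 (0.581), which damps signals of receptor tyrosine kinases, and TIPARP (0.625), an ADP-ribosyltransferase induced by the aryl hydrocarbon receptor. E2 at 3 h stood above 0 h by 2.64 for FGFR3, 2.77 for KAZN, 2.46 for SMAD7, 2.34 for SPRY4 and 2.54 for TIPARP, against 3.49 for HSD11B2. E2 at 24 h stood above 0 h by 1.18, 0.43, 0.73, 0.96 and 1.58 in the same order, against 1.08 for HSD11B2. Vehicle at 3 h was above 0 h by 0.61 for TIPARP and 0.41 for FGFR3, where HSD11B2 was at -0.02. These genes were selected for likeness on these same values, so the figures describe the match and carry no test.

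**Figure D5:**
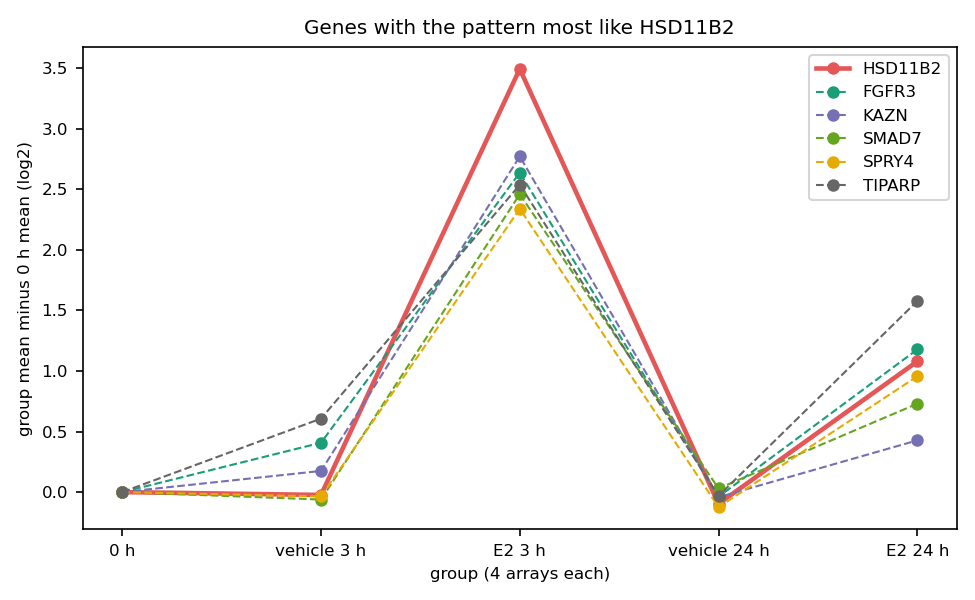
Group means minus the 0 h mean, in log2 on the y axis, for HSD11B2 and the 5 genes with the most similar course over the 5 groups of 4 arrays on the x axis. HSD11B2 peaks at 3.49 in E2 at 3 h and stands at 1.08 in E2 at 24 h, and the other 5 peak at 2.34 to 2.77.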

How the data were processed

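The authors deposited log2 expression for each probe set, computed by RMA (affy), per the submitters' processing notes. This method subtracts background, makes the arrays' distributions alike and combines probes, so altered total RNA in a cell would not show. Versions are not given in the sources used here. The platform annotation gave 1 symbol for 19064 of 22277 probe sets, several for 1043 and none for 2108, and 62 controls were left out. Entrez numbers of 19052 matched RefSeq, which changed 0 symbols. The brightest probe set on average over the 20 arrays stood for a gene, with no filter on dim values.

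The lmFit and eBayes functions of limma 3.58.1 (R 4.3.3) were run on all 20 arrays together, with the group as the only term, and with Benjamini-Hochberg adjustment and a threshold of 0.05. The fit was tested on simulated normal noise, with 50 genes changed in E2 at 3 h at each of 1.25-, 1.5-, 2- and 4-fold. It recovered 90% of those at 1.25-fold and 100% at each larger size, and 13 of the 208 genes called were unchanged. Far fewer genes changed there than were called in the data, so it does not measure the error rate here. The 7 genes and the 8 lists (5 pathway lists and 3 marker lists) were chosen with earlier results of these data known. From each pathway list the 4 genes of smallest p in each E2 comparison could be named. The comparisons of the E2 groups with each other and of the vehicle groups with each other were added after values were seen. Over all pairs of groups, arrays of the same letter showed no general tendency to deviate together (correlations of -0.245 to 0.370, median 0.007). Between E2 at 3 h and E2 at 24 h, however, all were positive (0.0065 to 0.370). The labels do not say that a letter marks a shared culture or day, so letters were not taken as pairs. The number of arrays limits the precision. No 2 arrays held identical values.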

Additional observations from a re-analysis of the deposited data

Results flagged for a closer look

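Of 180 sets of 4 arrays examined, 7 had 1 array far from the other 3 by Dixon's ratio, where chance gives about 1 in 20. These were HSD11B1 in vehicle at 3 h, array D (4.53), HSD11B2 in vehicle at 3 h, array D (5.78), a further STS probe set in vehicle at 3 h, array B (7.83), CYB5A in E2 at 3 h, array D (12.67), AKR1C1 in E2 at 24 h, array D (11.47), UGT2B4 in E2 at 3 h, array A (4.55), and MT1X in E2 at 3 h, array D (10.43).

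The E2 effect differed between 24 h and 3 h, by limma's test of the difference, for HSD11B2 (-2.34), HSD17B2 (-1.40), STS (-0.68) and HSD17B4 (0.29). Among pathway genes with the same kind of difference, the effect at 24 h was lower than at 3 h for UGT2B4 (-1.59), MT1X (-1.27), MT2A (-1.06), AKR1D1 (-1.05), CYP7B1 (-0.73), SCNN1A (-0.49), AKR1C3 (-0.45), AKR1C2 (-0.38), POR (-0.35), AKR1C1 (-0.33), CYP19A1 (-0.32) and CYB5A (-0.24). For AKR1C1 the mean of its 3 probe sets gave 0.24, called in the opposite direction, and 1 of the 3 was called that way. It was higher for UGT2B15 (1.79), UGT2B17 (1.42), NR3C2 (1.14), CYP1B1 (1.10), FKBP5 (0.75), FDX1 (0.46), PAPSS1 (0.28) and H6PD (0.26).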

How the results depend on the processing

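The calls of the 7 genes in both E2 comparisons and in their difference held under each setting tried in which the gene was tested (HSD11B1, HSD17B1 and SULT1E1 drop out without the dimmest 25% of genes), with HSD11B2 at 3.47 to 3.57 at 3 h and 1.07 to 1.29 at 24 h. With the replicate letter as a block, HSD11B2 was at 3.52 and 1.18, 3665 genes were called at 3 h and 5479 at 24 h, and among the genes named the block ended only the call of SRD5A1 at 3 h. At a threshold of 0.01, vehicle against 0 h called 1573 genes at 3 h and 784 at 24 h, since fewer pass a stricter threshold. Signs turned for values near 0 without a call: HSD17B2, E2 effect at 3 h, was 0.0025 with arrays centred on their median, 0.0077 with quantile normalization and 0.0057 with array weights, and HSD11B1, vehicle at 24 h minus 3 h, was 0.014 with quantile normalization. The AKR1C1 difference between the E2 effects turned to 0.24 with the mean of all its probe sets and passed the test in that direction (adjusted p = 0.00099). The cause was not tested. With 1 array left out, the lowest and highest values were -0.054 and 0.053 (HSD11B1), -0.056 and 0.083 (HSD17B1) and -0.035 and 0.013 (HSD17B2) for the E2 effect at 3 h, and -0.055 and 0.034 (HSD11B1) and -0.094 and 0.054 (HSD17B1) for vehicle at 24 h minus 3 h. They were -0.11 and 0.055 (HSD11B2) and -0.016 and 0.011 (HSD17B2) for vehicle at 3 h minus 0 h. For SULT1E1 they were -0.037 and 0.11 for the E2 effect at 24 h, -0.14 and 0.041 for vehicle at 24 h minus 0 h, and -0.080 and 0.070 for E2 at 24 h minus 3 h. With 4 arrays a group, small changes of dim genes such as HSD11B1 may go undetected.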
